A study of Dicentrarchus labrax with 10 samples.

Results

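The 80 most abundant transcripts on an array of European sea bass (Dicentrarchus labrax) gonad RNA are described here, chosen from 10712 transcripts outside clone libraries 22, 23 and 24 and from 11705 on the array in all. A transcript was taken when the level of its brightest probe, averaged over the 10 arrays, was over 6. Level means the log2 processed intensity of the probe minus the log2 75th percentile of intensity on the same array. The level therefore chose these transcripts and is given as a description. The difference between the rearing groups was not used in the choice and was tested.

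The fish fell into 2 groups of 5. HTE2 fish were reared early at 21 °C, and LTE2 fish early at 15 °C until 60 days post hatch (dph), after which their water was also brought to 21 °C. Both groups started at 17 °C for 20 dph, and all 10 fish received estradiol, the main female sex steroid, in the feed between 90 and 154 dph. Gonads were sampled at 170 dph and the fish are labelled putative females. With 1 tank per temperature, the tank cannot be told apart from the temperature. P-values measure only the spread between fish within a tank. No group without estradiol was analysed here. Each fish gave 1 array of Cy3-labelled RNA and is numbered by its replicate label, and values listed for a group run over fish 1 to 5. On each slide 1 HTE2 array sat at place 4 and 1 LTE2 array at place 3, so the position on the slide cannot be told apart from the group.

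Sea bass sex depends on many genes and on temperature in early life, with warm early water known to raise the share of males, and estrogen given while the gonad differentiates directs it to an ovary. In any tissue a small set of transcripts makes up a large share of the messenger RNA. In animal tissues that set usually holds messages for ribosomal proteins, translation factors, cytoskeleton and mitochondrial proteins, together with products special to the tissue's main cell types. The array's transcripts carry contig or clone names only, and none of the 11705 matched the RefSeq gene table, so no function is given to any of them and the gonad's marker genes were not checked. No probe sequences were used here. Because these are whole-gonad samples, fewer cells of a type and less RNA per cell cannot be told apart.

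Of the 80 transcripts, 61 were assembled contigs and 19 single clones. Contigs made up 76.25% of them, against 30.9% of the transcripts they were chosen from. The clones came from 8 libraries, with no more than 4 from any of them. Another 6 transcripts of libraries 22, 23 and 24 also had mean levels over 6 and lie outside the set. Mean level was over 7 for 39 of the 80 and over 8 for 4. The transcripts just inside the threshold were SeabassC-CL2547Contig1, cDN26P0006L24.F.ab1 and cDN34P0004H11.F.ab1, at 6.04, 6.01 and 6.01. Just outside it lay SeabassC-CL2287Contig1, SeabassC-CL3572Contig1 and SeabassC-CL638Contig1, at 5.98, 5.97 and 5.94. All 80 passed the filter on dim probes.

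The set made up 0.683% of the array's transcripts and carried between 25.9% and 40.2% of the signal summed over the brightest probe of every transcript. That share was 29.7%, 32.1%, 36.6%, 25.9% and 38.2% in HTE2 fish 1 to 5, against 36.9%, 39.8%, 40.2%, 37.7% and 37.5% in LTE2 fish 1 to 5. It averaged 32.5% ± 5.02 in HTE2 and 38.4% ± 1.49 in LTE2 (SD, n = 5 each). The groups overlapped, and HTE2 fish 4 was lowest. As probes differ in how strongly they bind and label, the order of signals describes probes and not amounts of transcript.

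Of the 80, 52 ranked among the 80 highest on all 10 arrays, and 44 were over 6 on all 10. The number over 6 ranged between 48 and 79 in HTE2 fish and between 77 and 79 in LTE2 fish. The authors' value table, in which the same arrays are deposited as log2 values, placed 76 of the 80 within its own first 80, and the lowest of the rest at rank 90. Quantile normalization kept 80 of the 80, spike-in scaling 79, normexp background correction 76 and the mean of all probes of a transcript 73. Spike-in scaling shifts all probes of an array alike, so it cannot itself reorder means over the same arrays. Its values left out flagged spots, so some transcripts had values on fewer arrays. Quantile normalization keeps the order of probes within an array. Neither scaling could therefore change the membership much. Normexp and the authors' value table could change the order, and each kept 76.

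**Figure D1:**
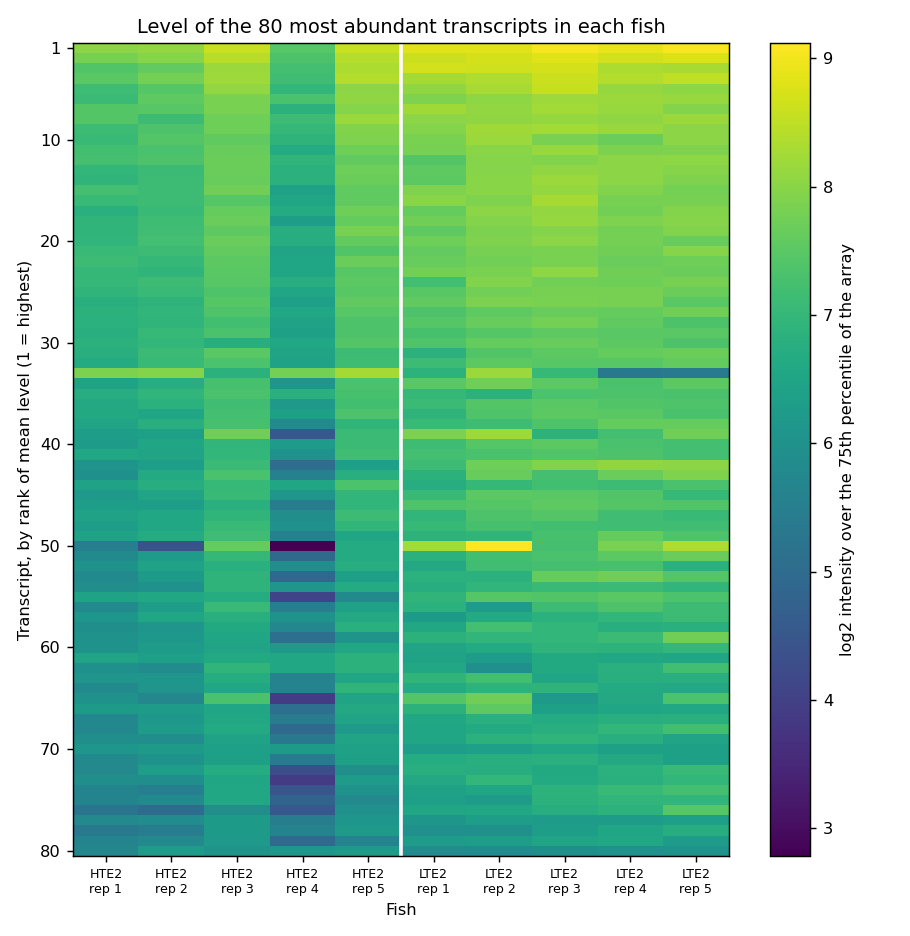
Level of the 80 transcripts (rows, ordered by mean level, highest at the top) in each of the 10 fish (columns, HTE2 left and LTE2 right of the white line), as log2 intensity over the array's 75th percentile. HTE2 fish 4 is dark in most rows, and the row at rank 33, SeabassC-CL4024Contig1, is brighter in every HTE2 fish than in LTE2 fish 4 and 5.

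SeabassC-CL4464Contig1 had the highest mean level, 8.54, which is 373 times the 75th percentile. Its level was 8.01, 8.09, 8.58, 7.47 and 8.59 in HTE2 fish, against 8.84, 8.84, 9.03, 8.90 and 9.06 in LTE2 fish, and the groups did not overlap. It fell by 0.82 ± 0.26 on the log2 scale (SE, adjusted p = 0.0384) relative to the 75th percentile. In the authors' value table its difference was -0.17 ± 0.10 and did not pass (adjusted p = 0.262). SeabassC-CL1892Contig1 came next with 7.82, 7.97, 8.45, 7.35 and 8.42 in HTE2 fish, against 8.61, 8.71, 8.80, 8.68 and 8.77 in LTE2 fish. Its groups did not overlap either, but its difference of -0.70 ± 0.28 missed the threshold (adjusted p = 0.0828). Only 4 arrays of each group were in that fit, as spots flagged as outliers were left out. With them kept, SeabassC-CL1892Contig1 fell by 0.71 ± 0.23 (adjusted p = 0.0392).

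The other 8 of the 10 brightest were SeabassC-CL5Contig1, SeabassC-CL3198Contig1, SeabassC-CL411Contig1, SeabassC-CL909Contig1, SeabassC-CL1626Contig1, cDN32P0001C23.F.ab1, cDN35P0006K24.F.ab1 and SeabassC-CL6Contig2. Their differences lay between -0.73 and -0.47, and none of the 8 passed the test with flagged spots left out. With flagged spots kept, SeabassC-CL5Contig1 and cDN35P0006K24.F.ab1 passed (adjusted p = 0.0367 and 0.0362), and the rest of the 8 did not. In cDN35P0006K24.F.ab1 the groups did not overlap, at 7.13, 7.35, 7.71, 7.01 and 7.93 in HTE2 fish, against 7.94, 8.22, 8.24, 8.15 and 8.01 in LTE2 fish. Its adjusted p was 0.0729 with flagged spots left out. Together the 10 brightest carried 7.36% ± 1.28 of the summed signal in HTE2 and 8.65% ± 0.54 in LTE2 (SD, n = 5 each).

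The comparison of HTE2 with LTE2 asks what early warm rearing leaves in the gonad after estradiol. Relative to the 75th percentile, 19 of the 80 transcripts fell in HTE2 and none rose (limma, adjusted p under 0.05, adjusted over all 20115 probes tested). That is 23.8% of them called in either direction, against 26.5% of all transcripts tested. Lower calls alone made up 23.8% of the 80 and 15.2% of all, and higher calls 0 of the 80 and 11.2% of all. At an unadjusted p under 0.05, 57 of the 80 were lower and 0 higher, beside 27.0% of all transcripts lower and 15.9% higher. The difference was negative for 77 of the 80, with a median of -0.66, beside -0.27 over all transcripts tested. Among transcripts of lower mean level, grouped by level, between 59.1% and 82.1% of the differences were negative. These directions are relative to the 75th percentile. The difference was negative for 47 of the 80 under quantile normalization, for 50 in the authors' value table and for 24 under spike-in scaling. No share over all transcripts is given for these scalings.

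The fit left out spots that the scanner software flagged as outliers, and spots of the 80 were flagged mostly on slide 1. On that slide's arrays 208 of the transcripts' spots, or 65.4%, were flagged, against 4 on the other arrays. Flagged non-control spots in all numbered 762 on slide 1 arrays and 295 on the other arrays. As a result 57 of the 80 lacked at least 1 slide 1 array in the fit and 25 lacked both. With flagged spots kept, 30 were lower and 0 higher, 15 of them among the 19, beside 15.4% of all transcripts lower and 11.2% higher. The count of lower calls also ran between 4 and 47 when 1 fish at a time was left out, beside between 7.2% and 26.5% of all transcripts lower.

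The groups did not overlap in 21 of the 80, all lower in HTE2 (26.25% of them), beside 9.0% of all transcripts tested that were lower without overlap and 4.48% that were higher without overlap. Taken slide by slide, 56 of the 80 were lower on all 5 slides and 76 on at least 4. The 19 that passed the test were lower on all 5. No share over all transcripts is given for these counts. On slides 1 to 5 in turn, 78, 76, 71, 77 and 65 of the 80 were lower. The shares of all transcripts tested that were lower were 62.4%, 61.2%, 52.9%, 63.0% and 56.5%. The median difference was -0.66, -0.74, -0.32, -1.19 and -0.23 on slides 1 to 5, beside -0.27, -0.28, -0.03, -0.55 and -0.15 for all transcripts tested. With the slide as a block, 5 of the 80 fell and none rose, beside 9.32% of all transcripts lower and 5.93% higher. The 5 were SeabassC-CL373Contig1, SeabassC-CL719Contig1, SeabassC-CL1606Contig1, cDN30P0006N05.F.ab1 and cDN32P0005E23.F.ab1.

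**Figure D2:**
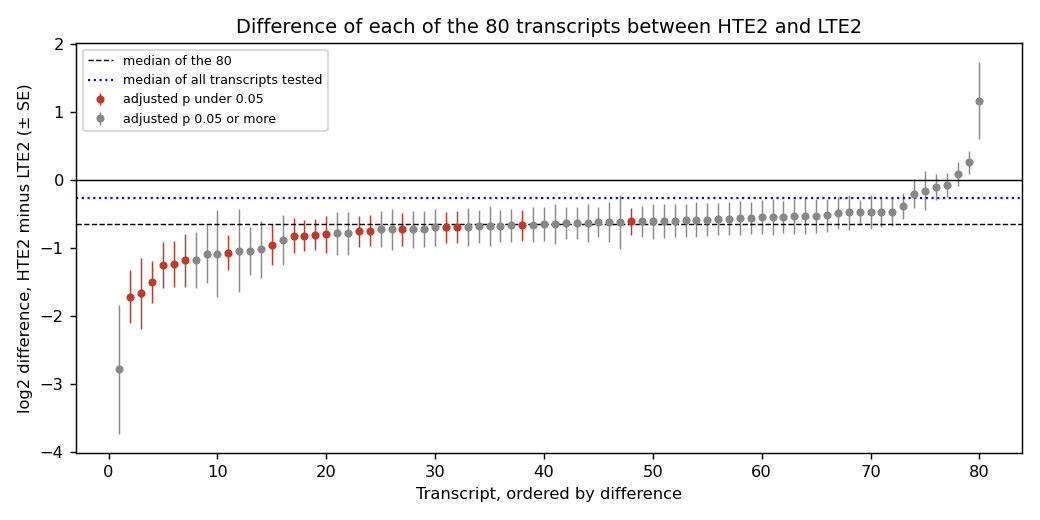
Log2 difference of HTE2 minus LTE2 for each of the 80 transcripts, ordered by size, with bars of ± 1 SE (n = 5 each, fewer where a flagged spot was left out). The 19 in red passed the test; 77 of the 80 lie under 0 and the dashed line marks their median, -0.66.

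The largest fall among those that passed was in SeabassC-CL373Contig1. Its level was 6.07, 6.33, 7.09, 5.05 and 6.35 in HTE2 fish, against 7.12, 7.71, 7.92, 8.06 and 8.01 in LTE2 fish. All HTE2 fish were under all LTE2 fish, HTE2 fish 3 only narrowly. It fell by 1.72 ± 0.39 (adjusted p = 0.0163), or 3.29-fold, with 4 arrays of each group in the fit. It also fell in the authors' value table, by 1.12 ± 0.28 (adjusted p = 0.0213).

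The clone cDN32P0005E23.F.ab1 had levels of 5.25, 5.03, 5.92, 4.53 and 5.99 in HTE2 fish, against 6.54, 6.58, 6.74, 6.89 and 7.48 in LTE2 fish. The groups did not overlap. It fell 2.83-fold (adjusted p = 0.0121) with all 10 arrays in the fit, and by 1.05 ± 0.27 on the log2 scale in the authors' value table (adjusted p = 0.0236).

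SeabassC-CL2534Contig1 had 6.44, 6.57, 6.72, 4.06 and 5.79 in HTE2 fish, against 6.93, 7.45, 7.40, 7.49 and 7.32 in LTE2 fish, with HTE2 fish 4 far under the others. It fell by 1.67 ± 0.52 (adjusted p = 0.0420), but its difference in the authors' value table, -0.86, did not pass (adjusted p = 0.262). SeabassC-CL719Contig1 had 5.64, 5.51, 6.58, 4.49 and 6.03 in HTE2 fish, against 6.42, 6.53, 6.89, 7.05 and 7.23 in LTE2 fish. HTE2 fish 3 lay within the LTE2 range. The fall was 1.25 ± 0.34 (adjusted p = 0.0232), but SeabassC-CL719Contig1 did not pass in the authors' value table.

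SeabassC-CL2348Contig1 had 6.03, 6.17, 6.52, 5.11 and 6.06 in HTE2 fish, against 6.85, 6.96, 6.98, 7.10 and 7.75 in LTE2 fish. The groups did not overlap, and it fell by 1.23 ± 0.34 (adjusted p = 0.0279). SeabassC-CL1502Contig1 had 5.78, 6.24, 6.90, 4.92 and 6.36 in HTE2 fish, against 6.83, 6.83, 7.63, 7.76 and 7.43 in LTE2 fish. HTE2 fish 3 again reached the LTE2 range, and the fall was 1.19 ± 0.39 (adjusted p = 0.0456). Neither SeabassC-CL2348Contig1 nor SeabassC-CL1502Contig1 passed in the authors' value table.

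SeabassC-CL1606Contig1 completed the 7 that passed with a fall of at least 2-fold. It had 6.30, 6.31, 6.82, 5.48 and 6.95 in HTE2 fish, against 7.37, 7.46, 7.56, 7.42 and 7.40 in LTE2 fish. Its LTE2 values lay close together and over every HTE2 value, and it fell by 1.07 ± 0.26 (adjusted p = 0.0172). The remaining 12 fell by less than 2-fold, SeabassC-CL595Contig1 most, by 0.95, and SeabassC-CL1424Contig1 least, by 0.61.

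HTE2 fish differed among themselves. HTE2 fish 4 had the lowest median level of the set, 6.22, and HTE2 fish 3 the highest of its group, 7.16. The ranks of the 80 transcripts were compared between fish by Spearman correlation, as a description. The values lay between 0.67 and 0.95 within HTE2, between 0.78 and 0.94 within LTE2 and between 0.51 and 0.91 across the groups. HTE2 fish 3 was the only one whose mean correlation with its own group, 0.789, was under that with the other, 0.879. Without HTE2 fish 3, 47 of the 80 fell and none rose, beside 26.5% of all transcripts lower and 15.8% higher. As HTE2 fish 3 was singled out on these same values, that count is a description. Without HTE2 fish 1, 2, 4 or 5 instead, 4, 4, 11 and 12 fell, beside 7.69%, 8.43%, 9.85% and 9.77% of all transcripts lower.

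Intensity before scaling gave another picture. The median log2 intensity of the 80 was 16.05, 16.71, 16.84, 16.67 and 16.42 in HTE2 fish, against 15.02, 16.71, 16.45, 16.90 and 16.62 in LTE2 fish. The groups overlapped, and LTE2 fish 1 was lowest. The 75th percentile of intensity itself was 782, 1086, 819, 1393 and 633 in HTE2 fish, against 243, 608, 514, 684 and 588 in LTE2 fish. It was higher in the HTE2 array on all 5 slides, by 1.68, 0.84, 0.67, 1.03 and 0.11 on the log2 scale. On the same slides the median of the 80 differed by 1.02, 0.10, 0.36, -0.17 and -0.12.

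The median level of the set, which is the first of these measures minus the second, was 6.44, 6.62, 7.16, 6.22 and 7.11 in HTE2 fish, against 7.09, 7.46, 7.45, 7.48 and 7.42 in LTE2 fish. It averaged 6.71 ± 0.41 in HTE2 and 7.38 ± 0.16 in LTE2 (SD, n = 5 each). HTE2 fish 3 and 5 lay above LTE2 fish 1 and below the other LTE2 fish. The brightness of the array moved with the group, so its part in the differences cannot be told apart from the group. With the 75th percentile as a covariate 0 of the 80 passed, beside 0.545% of all transcripts. The median difference in that fit was -0.25, beside -0.11 over all. That fit cannot separate brightness from group either, because the 75th percentile was itself higher in the HTE2 array of every slide.

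**Figure D3:**
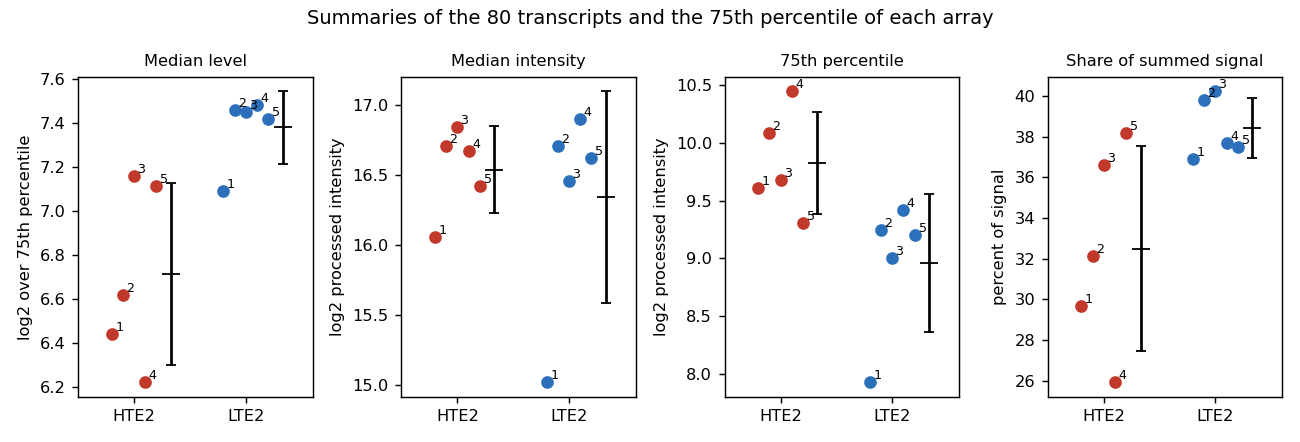
Median level of the 80 transcripts, their median log2 intensity, the log2 75th percentile of the array and their share of the summed signal, in each fish (numbered points, HTE2 left and LTE2 right) with mean ± SD (n = 5). Median level and share are lower in most HTE2 fish, the 75th percentile is higher on every slide, and median intensity overlaps.

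No spot was saturated, and the brightest spot of each array reached between 42.6% and 71.8% of the saturation value. Between 90.6% and 100% of the transcripts' spots per array had been scaled up by the scanner software out of a scan at lower gain, against between 1.06% and 3.25% of all spots. Their values thus rest on that joining step, whose part in the differences was not tested.

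The lower values in HTE2 were not limited to the 80. The 67 transcripts with mean levels between 5 and 6 had a median difference of -0.74, and 38.8% of them fell. The 116 with levels between 4 and 5 had a median of -0.46. Under a level of 4, the medians lay between -0.29 and -0.21. Of the 80, 0 rose, against 4.48% and 6.90% of those bins. These are descriptions of bins and were not tested against each other.

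The size and the sign of the median difference changed with the scaling. Under normexp correction the median over the 80 was -0.45, beside -0.51 over all transcripts tested. There 3 were lower and 0 higher, beside 15.3% of all transcripts lower and 5.37% higher. The 3 were SeabassC-CL373Contig1, SeabassC-CL719Contig1 and cDN32P0005E23.F.ab1. Quantile normalization, which gives every array the same distribution and so the same top, put that median at -0.03, beside -0.19 over all. It gave 0 higher and 2 lower, beside 12.3% of all higher and 13.4% lower. The 2 were SeabassC-CL373Contig1 and cDN32P0005E23.F.ab1. When flagged spots entered the quantile normalization and were masked only afterwards, a choice made after seeing the data, these also fell, and SeabassC-CL2554Contig1 and cDN34P0004H11.F.ab1 rose, beside 12.7% of all higher and 13.4% lower. Spike-in scaling, which divides by control RNA added before labelling, put it at 0.15, with 1 higher and 1 lower, beside 12.7% of all higher and 0.182% lower. SeabassC-CL4024Contig1 rose and cDN27P0007K09.F.ab1 fell. Spike-in scaling also moved the median of all transcripts to 0.76. Its estimates were imprecise: in SeabassC-CL4464Contig1 the SE was 0.73, against 0.26 with 75th percentile scaling. The control RNA's own mean log2 intensity lay between 9.57 and 11.53 within HTE2. In the authors' value table the median was -0.035, beside -0.092 over all. There 6 were higher and 3 lower, beside 11.2% of all higher and 12.3% lower. Those that rose were SeabassC-CL4024Contig1, SeabassC-CL3823Contig1, SeabassC-CL3515Contig1, SeabassC-CL2554Contig1, SeabassC-CL1063Contig1 and cDN34P0004H11.F.ab1, and those that fell were SeabassC-CL373Contig1, SeabassC-CL1606Contig1 and cDN32P0005E23.F.ab1. With the slide as a block 1 fell and 0 rose there, beside 2.66% of all lower and 0.61% higher. In that table the set's median log2 value averaged 16.31 ± 0.04 in HTE2 and 16.35 ± 0.03 in LTE2 (SD, n = 5 each). Its columns had nearly equal tops, with maxima between 18.24 and 18.31. A difference of the whole set could therefore hardly show there, as under quantile normalization.

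**Figure D4:**
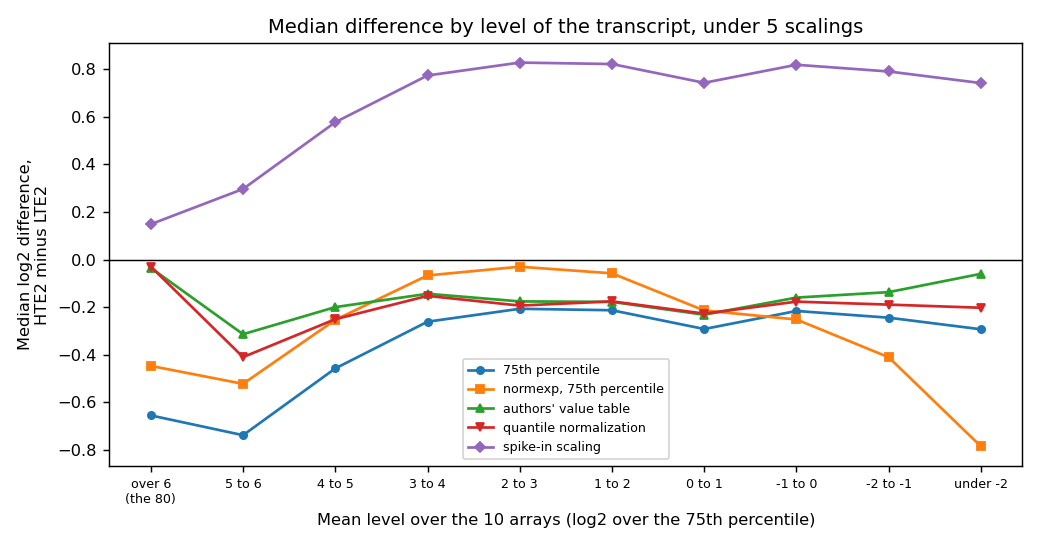
Median log2 difference of HTE2 minus LTE2 by mean level of the transcript, under 5 scalings. The 80 transcripts (leftmost points) lie at -0.66 with 75th percentile scaling, near 0 in the authors' value table and under quantile normalization, and at 0.15 under spike-in scaling.

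To compare the 80 with each other, each array was also centred on their median, a choice made after the values were seen. That median level averaged 6.71 in HTE2 and 7.38 in LTE2, so a transcript of unchanged level rises relative to it. A rise here thus describes a place within the set and does not show a higher level in HTE2. Relative to the set's median 3 transcripts rose and 2 fell, beside 25.5% of all transcripts higher and 2.41% lower. Those that rose were SeabassC-CL4024Contig1, SeabassC-CL2554Contig1 and cDN34P0004H11.F.ab1, and those that fell were SeabassC-CL373Contig1 and cDN32P0005E23.F.ab1. The same 5 passed in the same directions in the authors' value table. That table comes from the same arrays and has nearly equal tops, so it is not an independent check.

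SeabassC-CL4024Contig1 had the highest positive difference. Its level was 7.86, 7.94, 6.87, 7.79 and 8.27 in HTE2 fish, against 6.87, 8.17, 7.02, 5.34 and 5.41 in LTE2 fish. HTE2 fish 3 was the only one of its group under 7, and LTE2 fish 4 and 5 lay far under the other LTE2 fish. Relative to the 75th percentile the difference was 1.16 ± 0.57 and did not pass (adjusted p = 0.136). It rose by 1.76 ± 0.61 relative to the set's median (adjusted p = 0.0462). In the authors' value table it rose by 1.95 ± 0.61 (adjusted p = 0.0429), and it was higher in HTE2 on 3 of 5 slides by level. Its values ranked 33 by level and 47 in the authors' value table.

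SeabassC-CL2554Contig1 was nearly level, at 6.48, 6.35, 6.63, 6.59 and 6.85 in HTE2 fish, against 6.43, 6.25, 6.64, 6.58 and 6.54 in LTE2 fish. Its difference was 0.08 ± 0.18 (adjusted p = 0.747) over the 75th percentile, and it rose by 0.75 ± 0.24 relative to the set's median (adjusted p = 0.0316). The clone cDN34P0004H11.F.ab1 was similar, at 5.69, 6.30, 6.06, 6.15 and 6.24 in HTE2 fish, against 5.85, 5.87, 5.94, 5.99 and 6.01 in LTE2 fish. Its difference was 0.25 ± 0.17 (adjusted p = 0.267), and it rose by 0.85 ± 0.27 relative to the set's median (adjusted p = 0.0346). In both transcripts the rise mostly mirrors the lower median of the set in HTE2, as neither difference in level passed. SeabassC-CL1063Contig1 varied least between fish of a group, with an SD of 0.105, and its difference was -0.08 ± 0.17 (adjusted p = 0.734). By level it makes up the 3 steadiest of the 80 with SeabassC-CL2554Contig1 and cDN34P0004H11.F.ab1. In the authors' value table SeabassC-CL2554Contig1 was less steady, with an SD of 0.417 in HTE2 and 0.157 in LTE2. Relative to the set's median cDN34P0004H11.F.ab1 was less steady too, between -1.59 in LTE2 fish 2 and -0.07 in HTE2 fish 4. The steadiness thus holds for the 75th percentile scaling.

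The widest spread was in the clone cDN27P0007K09.F.ab1. Its level was 5.51, 4.36, 7.61, 2.79 and 6.69 in HTE2 fish, against 8.25, 9.12, 7.26, 7.84 and 8.37 in LTE2 fish. HTE2 fish 3 lay over LTE2 fish 3, and the other HTE2 fish lay under every LTE2 fish. In LTE2 fish 2 it was the brightest of the 80, while in HTE2 fish 4 it was far under the threshold. The difference was -2.78 ± 0.95 and just missed the threshold with flagged spots left out (adjusted p = 0.0544). With them kept it fell by 2.77 ± 0.77 (adjusted p = 0.0253). Its within-group SD was 1.43, beside a median of 0.346 over the 80 and 0.473 over all transcripts tested. The SD was under 0.5 in 63 of the 80 and over 1 in 2.

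SeabassC-CL19Contig2 had 6.34, 6.37, 7.75, 4.52 and 7.10 in HTE2 fish, against 7.87, 8.23, 6.87, 7.23 and 7.76 in LTE2 fish. SeabassC-CL19Contig1 lay between 3.89 and 7.31 in HTE2 fish, against between 6.18 and 7.74 in LTE2 fish. In both contigs HTE2 fish 4 was lowest, HTE2 fish 3 highest of its group and LTE2 fish 3 lowest of its group. Their differences, -1.09 ± 0.63 and -1.05 ± 0.61, did not pass (adjusted p = 0.208 and 0.204). By name both come out of assembly cluster 19, so their probes may share sequence, which was not checked.

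**Figure D5:**
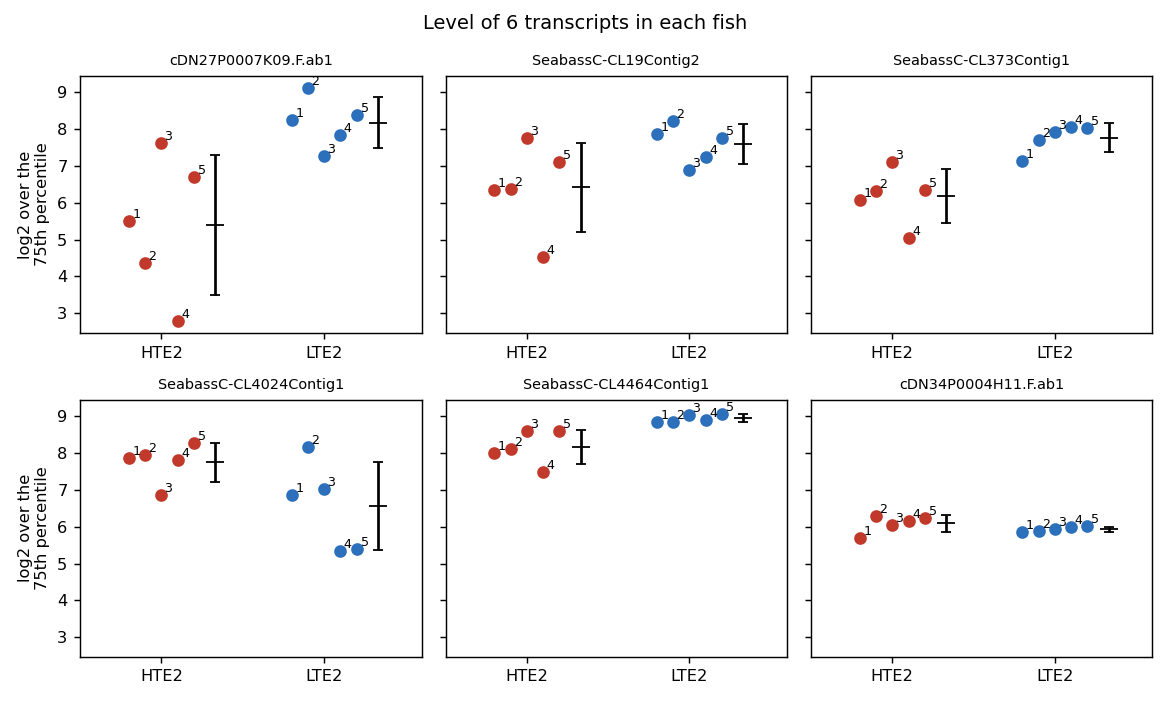
Level in each fish (numbered points, HTE2 left and LTE2 right) of 6 of the transcripts, with mean ± SD (n = 5 each), on a common axis in log2 over the array's 75th percentile. cDN27P0007K09.F.ab1 runs between 2.79 and 9.12, SeabassC-CL4024Contig1 is the one with a higher HTE2 mean by over 1, and cDN34P0004H11.F.ab1 varies little on this axis.

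Likeness of pattern was measured as Pearson's r over the 10 arrays after centring each array on the set's median, as a description with no test. It was 0.99 between SeabassC-CL19Contig1 and SeabassC-CL19Contig2, and 0.98 over the 8 arrays left without the 2 farthest. With cDN27P0007K09.F.ab1, the most like transcript was SeabassC-CL19Contig2, at 0.86, and 0.75 over 8 arrays. SeabassC-CL373Contig1 had 0.90 with both SeabassC-CL1502Contig1 and SeabassC-CL813Contig1, and over 8 arrays 0.77 with the first and 0.85 with the second. All these arrays share 5 slides and the same centring. No likeness is given for the 3 steadiest transcripts, since centring makes any nearly flat transcript mirror the set's median.

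Most of the transcripts were measured by more than 1 probe. Of the 80, 75 had 3 probes, and all probes of a transcript had mean levels over 6 in 59. Among the 75 with at least 2 tested probes, the differences had 1 sign in 73. The exceptions were cDN26P0006L24.F.ab1 and SeabassC-CL2554Contig1. In cDN26P0006L24.F.ab1 the brightest probe fell by 0.76 (adjusted p = 0.0321), and its dimmer probes had differences of 0.09 and -0.43, neither of which passed. Every tested probe passed in 8 of the 19 transcripts that fell, and in 21 of those that did not pass by their brightest probe another probe did. A transcript with several probes has more than 1 chance to pass, and no share over all transcripts is given for these counts. The 8 include SeabassC-CL2428Contig1, with only 1 tested probe. Its other probes had mean levels of -7.69 and -7.71, far under its brightest at 7.54, and were not tested. In cDN31P0003E17.F.ab1, which did not pass, the untested probes likewise lay at -5.90 and -6.41, against 6.89 for the brightest.

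Transcripts that moved most in rank between the level and the authors' value table were cDN34P0002K21.F.ab1 and SeabassC-CL38Contig3, each 16 places lower there. SeabassC-CL4024Contig1, SeabassC-CL2534Contig1 and cDN27P0007K09.F.ab1 were tied at 14 places lower, and cDN34P0006C06.F.ab1 and SeabassC-CL4Contig1 lay 14 places higher. SeabassC-CL38Contig3 had 5.94, 5.93, 6.52, 3.89 and 6.26 in HTE2 fish, against 6.62, 6.97, 6.65, 6.82 and 6.97 in LTE2 fish. The groups did not overlap, but the difference of -1.10 ± 0.42 did not pass (adjusted p = 0.0709). In cDN34P0002K21.F.ab1 the difference was -0.54 ± 0.24 (adjusted p = 0.103), and in SeabassC-CL2547Contig1, just inside the threshold, it was -0.53 ± 0.25 (adjusted p = 0.122).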

How the data were processed

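Gonad RNA of 10 fish was hybridised to 1-colour Agilent arrays, and per the file headers spot intensities were produced with Agilent Feature Extraction 10.7.3.1. The deposited processed intensity is background-subtracted, and per the file headers bright spots are taken out of a lower-gain scan and scaled up. The authors' value table holds log2 values; per the submitters' processing notes, Agilent Feature Extraction and limma were used, and no source used here gives its background correction or normalization. The column medians lie between 8.01 and 8.05 and the column maxima between 18.24 and 18.31. The scanner's flags for outliers, background and gain were used as deposited.

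Levels were computed as log2 processed intensity minus the 75th percentile of all non-control spots of that array. Spots of a probe were averaged, and the brightest probe stood for a transcript. Differences are HTE2 minus LTE2. They were tested with limma 3.58.1 in R 4.3.3 (lmFit, eBayes, two-sided), adjusted by Benjamini-Hochberg over 20115 of 24200 probes. Testing required that 50% or more of a probe's spots exceeded background clearly on 5 or more of the 10 arrays. Flagged outlier spots were left out of the fit but not of the levels. The fits were tested on simulated data with independent normal noise for each probe. Those data held no slide, brightness or flagged-spot effect, so they cannot show how such effects bear on the counts. The number of arrays limits the precision.

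The members, lists and tests were chosen with earlier results of these data known. Named transcripts are the 10 with the highest level, the 6 largest falls and rises that passed with 1 sign on at least 4 slides, the 3 with the largest and the 3 with the smallest SD, the 3 on each side of the threshold, the 3 largest rank moves, and those whose probes disagree. SeabassC-CL1606Contig1, SeabassC-CL595Contig1, SeabassC-CL1424Contig1, SeabassC-CL3823Contig1, SeabassC-CL3515Contig1, cDN30P0006N05.F.ab1, cDN34P0006C06.F.ab1, SeabassC-CL4Contig1 and SeabassC-CL813Contig1 were named after their values were seen. The replicate number is the slide, per the file headers. Deviations of same-numbered arrays correlated at 0.38, 0.292, -0.321, 0.0303 and 0.165, so not every correlation was over 0.1, and the number entered as the slide only. Alternatives were other scalings, filters, probes and variance models, the slide as a block, and leaving out arrays.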

Additional observations from a re-analysis of the deposited data

Results flagged for a closer look

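Values of 1 group were searched for a fish that lay far outside the rest. This was done for 70 groups of 5, and 4 such values were found, with LTE2 fish 1 among them more than once. Chance alone flags about 1 group in 20, so about this many flags can arise by chance. The median level of the 80 transcripts in LTE2 fish 1 was 7.09, under the next lowest LTE2 fish at 7.42. In SeabassC-CL38Contig3, HTE2 fish 4 had a level of 3.89, under the next lowest HTE2 fish at 5.93. In SeabassC-CL1424Contig1, LTE2 fish 1 had 7.42, under the next lowest LTE2 fish at 7.92. In SeabassC-CL2348Contig1, LTE2 fish 5 had 7.75, over the next highest LTE2 fish at 7.10.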

How the results depend on the processing

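With 75th percentile scaling 19 of the 80 transcripts were lower in HTE2, 0 were higher and the median difference was -0.66. Each count is followed by the share of all transcripts that were lower in the same fit, which was 15.2% here. With the replicate number, which is the slide, as a block, 5 were lower (9.32%), and 6 with flagged spots also kept (9.32%). For the pairing of numbers, 5 of 10 arrays correlated best with their own number. Lower calls were 12 with the 90th percentile (13.6%), 3 with normexp (15.3%), 30 with flagged spots kept (15.4%), 31 with the mean of all probes (15.6%) and 31 with a variance trend (16.4%). Array weights gave 58 lower (32.0%) and 1 higher, beside 18.6% of all transcripts higher. With array brightness as a covariate 0 were lower (0.484%) and the median was -0.25. Quantile normalization gave 2 lower (13.4%) and a median of -0.030. Spike-in scaling gave 1 higher, 1 lower (0.182%) and 0.15. The authors' value table gave 6 higher, 3 lower (12.3%) and -0.035, and with the replicate block 1 lower (2.66%) and -0.035. Leaving out 1 fish left between 4 and 47 lower, between 0 and 1 higher and a median between -0.77 and -0.49. There were 4 (7.69%), 4 (8.43%), 47 (26.5%), 11 (9.85%) and 12 (9.77%) lower without HTE2 fish 1 to 5, against 10 (11%), 9 (10.6%), 6 (11.6%), 5 (7.2%) and 5 (7.35%) without LTE2 fish 1 to 5. Chosen after seeing the data, leaving out both arrays of slide 1 left 1 lower (2.48%), and leaving out HTE2 fish 3 with flagged spots kept gave 62 (26.7%). Quantile normalization over every spot, chosen after seeing the data because the 80 held many flagged spots, gave 2 higher, 2 lower (13.4%) and -0.022. A random slide block, median centring, no filter, the stricter filter, 1 probe per transcript and leaving out slide 3 kept the count within 1.5 times.

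The difference was positive for 3 of the 80 with 75th percentile scaling, 33 under quantile normalization, 36 with it over every spot, 56 under spike-in scaling, 30 in the authors' value table and 7 under normexp. Of the sign changes listed below for spike-in scaling, none passed the limma test (adjusted p of 0.376 or more). Among the transcripts whose differences were followed through every setting, these changed sign. Under quantile normalization SeabassC-CL3198Contig1 was at 0.038, SeabassC-CL1626Contig1 at 0.094, cDN32P0001C23.F.ab1 at 0.040, SeabassC-CL6Contig2 at 0.15, SeabassC-CL1063Contig1 at 0.29, SeabassC-CL1424Contig1 at 0.053, SeabassC-CL3823Contig1 at 0.43 and SeabassC-CL3515Contig1 at 0.24. With it over every spot SeabassC-CL909Contig1 was at 0.14, SeabassC-CL1626Contig1 at 0.053, cDN32P0001C23.F.ab1 at 0.0057, SeabassC-CL6Contig2 at 0.14, SeabassC-CL1063Contig1 at 0.54, SeabassC-CL2547Contig1 at 0.067, cDN34P0002K21.F.ab1 at 0.074, SeabassC-CL1424Contig1 at 0.029, SeabassC-CL3823Contig1 at 0.48 and SeabassC-CL3515Contig1 at 0.43. Under spike-in scaling SeabassC-CL5Contig1 was at 0.13, SeabassC-CL3198Contig1 at 0.21, SeabassC-CL411Contig1 at 0.018, SeabassC-CL909Contig1 at 0.38, SeabassC-CL1626Contig1 at 0.25, cDN32P0001C23.F.ab1 at 0.24, SeabassC-CL6Contig2 at 0.15, SeabassC-CL1063Contig1 at 0.77, SeabassC-CL2547Contig1 at 0.51, cDN26P0006L24.F.ab1 at 0.28, cDN34P0002K21.F.ab1 at 0.31, SeabassC-CL595Contig1 at 0.081, SeabassC-CL1424Contig1 at 0.20, SeabassC-CL3823Contig1 at 0.92, SeabassC-CL3515Contig1 at 0.65 and cDN30P0006N05.F.ab1 at 0.22. In the authors' value table, with and without the replicate block, SeabassC-CL411Contig1 was at 0.0020, SeabassC-CL909Contig1 at 0.12, SeabassC-CL6Contig2 at 0.10, SeabassC-CL1063Contig1 at 0.65, cDN34P0002K21.F.ab1 at 0.06, SeabassC-CL1424Contig1 at 0.14, SeabassC-CL3823Contig1 at 0.56 and SeabassC-CL3515Contig1 at 0.53. With brightness as a covariate SeabassC-CL411Contig1 was at 0.037, SeabassC-CL6Contig2 at 0.014, SeabassC-CL19Contig1 at 0.17 and SeabassC-CL19Contig2 at 0.24. Under normexp SeabassC-CL1063Contig1 was at 0.15, SeabassC-CL3823Contig1 at 0.078 and SeabassC-CL3515Contig1 at 0.097. Under array weights SeabassC-CL2554Contig1 was at -0.056. Apart from what the constructions of these settings state, the cause was not tested.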
